A study of Homo sapiens with 3 samples.

Results

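The subject here is the DEAD and DEAH box family of RNA helicase genes and the eCLIP peaks that lay within them. Members were the coding genes of chromosomes 1 to 22 and X whose symbol is DDX or DHX followed by a number, and a peak belonged to a member when its centre lay in the gene span of NCBI RefSeq GRCh38.p14, whose coordinates are those of hg38. This gave 53 genes, of which 38 held 100 peaks, out of 21031 peaks in the list and 19261 in coding genes of those chromosomes. The rule used gene symbols and positions and no measured value.

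The study used eCLIP, an assay that crosslinks proteins to RNA with ultraviolet light, pulls down 1 protein and sequences the RNA it carries, to locate RNA associated with the mouse pregnane X receptor (Pxr, a nuclear receptor that senses drugs and bile acids). All 3 libraries came from LS174T, a human colon adenocarcinoma cell line, transfected with HA-tagged mouse Pxr for 24 h and crosslinked at 254 nm and 400 mJ/cm2. The labels name 1 input library and 2 replicates of the PXR immunoprecipitate, and antibodies to PXR, HA and IgG without saying which served for which library. The receptor expressed is thus the mouse protein in human cells, and the input and immunoprecipitate share the transfection.

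The deposited data used here are 1 list of peaks, made separately for each strand. It names no library, and the sources used here do not say whether it pools both replicates or whether the input served as control. All values are therefore those of the list as a whole, with no replicate error and no test against input. The fold of a peak is the authors' value from the peak caller, the reads at the summit over a local background, each with 1 added. Reads at the summit, and reads in the 10 kb around it on the same strand, were recovered from the deposited fold and p-value. Intervals of reads are exact Poisson intervals at 95%, which cover counting error only. The background was read as a 10 kb count of the same reads that form the summit. All 100 helicase backgrounds, scaled to 10 kb, were whole within 0.05, and none was below its summit count. Shares of the 10 kb rest on that reading, under which the fold is no ratio to input. Over the whole list the median summit held 21 reads, a count whose own interval is 13.0 to 32.1, and the lowest held 4, so a gene without a peak may carry RNA below the depth of the list. A peak can reflect how abundant an RNA is in the cells as well as crosslinking, and no expression values were used here to tell these apart. Of 14 colon epithelial markers 13 held a peak, with KRT20 the exception, while none of 6 hepatocyte or 6 blood markers did and 1 of 6 fibroblast and endothelial markers did, COL1A2 with 10 reads. Over all coding genes the share with a peak was 41.7%.

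DEAD and DEAH box proteins are enzymes that use ATP to unwind RNA duplexes or to strip proteins from RNA, and they are named for the amino acid letters of a conserved motif in the helicase core. DEAD box members mostly open short duplexes locally, and DEAH box members tend to move along a strand. Together they act at nearly each step of an RNA's life, from splicing and ribosome assembly to export, translation and decay, in epithelial cells as in other cell types.

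A peak lay in 38 of the 53 helicase genes (71.7%, exact binomial interval 57.7 to 83.2%). Among all 19970 coding genes the share was 41.7%. With a stricter threshold, −log10 q at or above the list median, 20 members kept a peak (37.7%), against 26.0% of coding genes. For this threshold no interval was computed, and the narrower gap was not tested. Gene length differed in the same direction as the share, with a median of 30940 bases in the family and 24190 over all coding genes, and its part in the difference was not tested. Summed over genes there were 0.459 peaks per 10 kb in helicase genes and 0.157 in all coding genes. In the 38 genes the median number of peaks was 2.50, against 2 for all coding genes with a peak. Of the members, 13 held 1 peak, 20 held 2 to 4 and 5 held 5 or more. Those 5 make up 9.43% of the family (exact interval 3.13 to 20.7%), against 4.54% of coding genes with at least 5 peaks. At least 1 peak with a fold of 10 or more was found in 7 members (13.2%, exact interval 5.48 to 25.3%), against 10.3% of coding genes, which is close to the background.

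**Figure D1:**
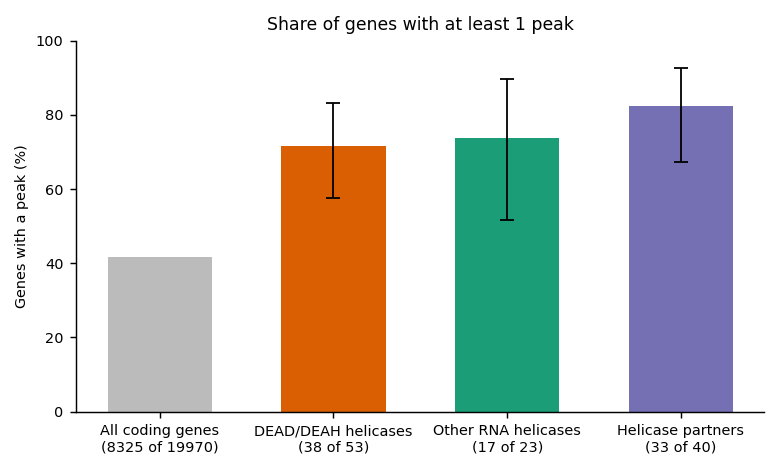
Percentage of genes with at least 1 peak centre in their span, for 4 groups. These are all coding genes of chromosomes 1 to 22 and X, the family as set by DDX and DHX symbols, RNA helicases with other symbols, and known helicase partners. Bars start at 0 and error bars are exact binomial 95% intervals, which do not cover how the lists were chosen. The 3 helicase-related groups lie at 71.7, 73.9 and 82.5%, and all coding genes at 41.7%.

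Helicase peaks lay close to other coding-gene peaks in height. Their median fold was 5.45 (quartiles 4.69 and 6.72), against 5.92 (4.77 and 7.65) for all coding-gene peaks. The median summit held 21 reads (quartiles 14 and 30), against 22 (14 and 35), and the median width was 272 bases, against 268. Summits ranged from 7 reads in DDX50 to 155 reads in DDX5, and folds from 2.96 in DDX3X to 28.6 in DHX37. The 3 genes with the most summit reads, DDX5, DDX17 and DHX15, held 37.7% of the 2864 summit reads summed over the family.

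**Figure D2:**
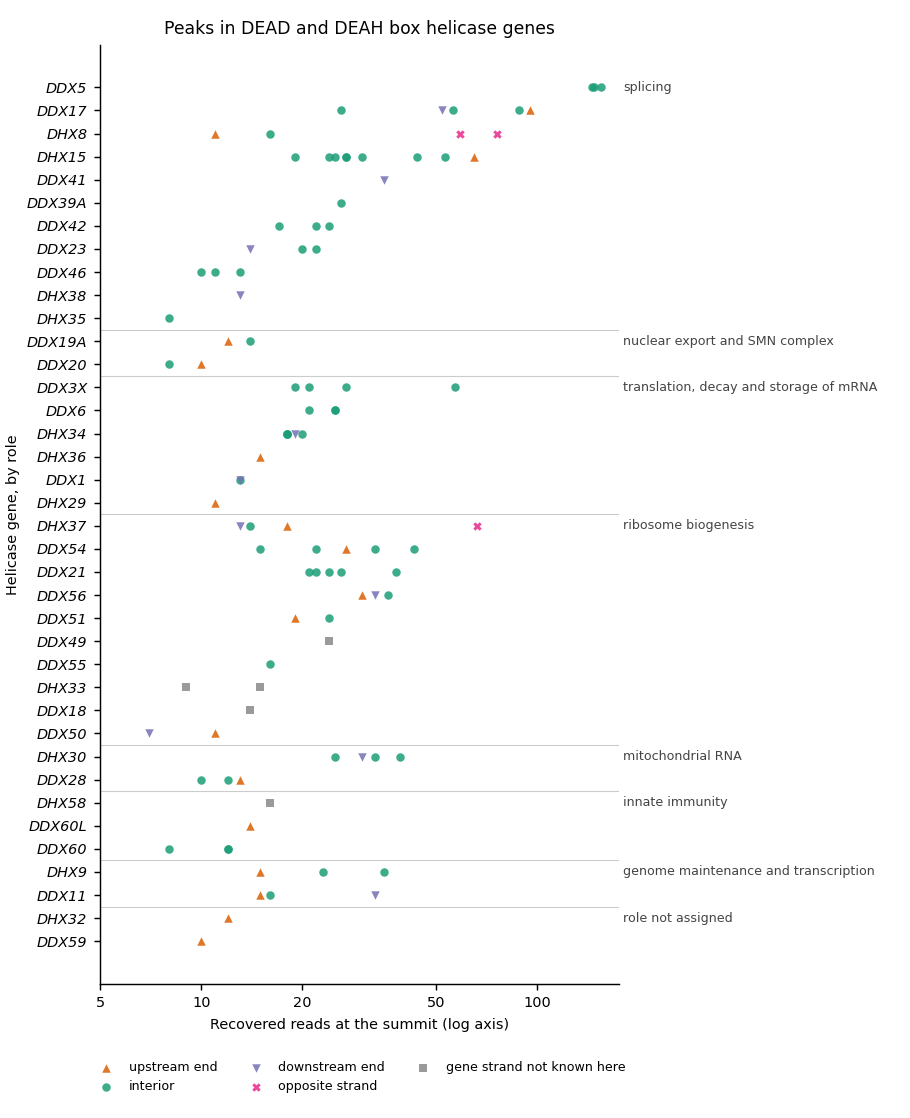
Recovered reads at the summit (x axis, log scale) of each of the 100 peaks, with the 38 genes on the y axis grouped by role. Triangles mark peaks within 500 bases of the upstream or downstream end of the gene, circles those between, crosses those on the strand opposite to the gene, and squares genes whose strand was not known here. The 3 peaks of DDX5 lie at 146 to 155 reads, above all other peaks of the family.

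The deepest summits of the family lay in the splicing helicases DDX5 and DDX17. Of 13 splicing genes 11 had a peak (exact interval 54.6 to 98.1%), against 41.7% of all coding genes and 71.7% of the family. Their 34 peaks held between 8 and 155 reads, with a median of 26. These include the peaks of DHX8 on the strand opposite to the gene. DDX5 (p68) and its paralog DDX17 (p72) are DEAD box proteins that act in splicing, microRNA processing and transcription. DDX5, on chromosome 17 from 64498254 to 64506866 on the minus strand, held 3 peaks, with 148 reads (125 to 174), 146 reads (123 to 172) and 155 reads (132 to 181) from its upstream to its downstream side. The intervals of all 3 overlap, so no summit of DDX5 stood above the others beyond counting error. Folds were 5.80, 4.12 and 4.74, with 1235, 1736 and 1595 reads in the 10 kb around them. The fold sets a summit against its surroundings, and of these 3 deepest summits of the family 1 had a fold above the median of 5.45 and 2 had folds below it.

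The middle peak of DDX5, at chr17:64500455-64501899, was the widest of the family at 1445 bases. It spanned the microRNA genes MIR3064 and MIR5047, and no other microRNA or snoRNA gene inside a family member was overlapped by a peak. SNORD84 and SNORD117 lie in DDX39B, which held no peak. The share over all microRNA and snoRNA genes is not given here, so the family cannot be set against it. The mature sequences of MIR3064 and MIR5047 are printed to show what lies under the DDX5 peak, from RefSeq (GRCh38.p14). They are on the minus strand like DDX5 and the peak, with the seed (bases 2 to 8) in capitals. The 3 seeds differ from each other.
hsa-miR-3064-5p: uCUGGCUGuuguggugugcaa
hsa-miR-3064-3p: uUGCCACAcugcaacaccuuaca
hsa-miR-5047: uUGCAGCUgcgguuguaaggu
The list holds no read lengths, so reads of the host RNA and of a microRNA precursor cannot be told apart there.

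DDX17, on chromosome 22 from 38483438 to 38506311 on the minus strand, held 5 peaks. From upstream to downstream their summits held 95 reads (76.9 to 116), 26 reads (17.0 to 38.1), 56 reads (42.3 to 72.7), 88 reads (70.6 to 108) and 52 reads (38.8 to 68.2). The first lay 265 bases from the upstream end and took 33.5% of the 284 reads in its 10 kb, at a fold of 14.4. The peak of 88 reads overlaps it in counting interval but had a fold of 4.81, with 876 reads around it. DDX17 and DDX5 thus each had a peak near their upstream side, 265 and 746 bases in, and further peaks in the downstream part of the gene. Both are similar in coding sequence, and the sources used here do not say how reads shared between copies were assigned.

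DHX15, the DEAH box protein that takes apart the spliceosome after splicing, held 9 peaks, the most of any member. All lay on the minus strand, as the gene does, on chromosome 4 from 24527475 to 24584554. The summit nearest the upstream end held 65 reads (50.2 to 82.8) at a fold of 18.0, and 48.9% of the reads in its 10 kb. The next 2 held 53 reads (39.7 to 69.3), 8181 bases in, and 44 reads (32.0 to 59.1), 13871 bases in. The other 6, between 28297 and 54940 bases in, held 19 to 30 reads. The interval of the upstream summit lies above those of all 6, while each summit overlaps its neighbours along the gene.

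**Figure D3:**
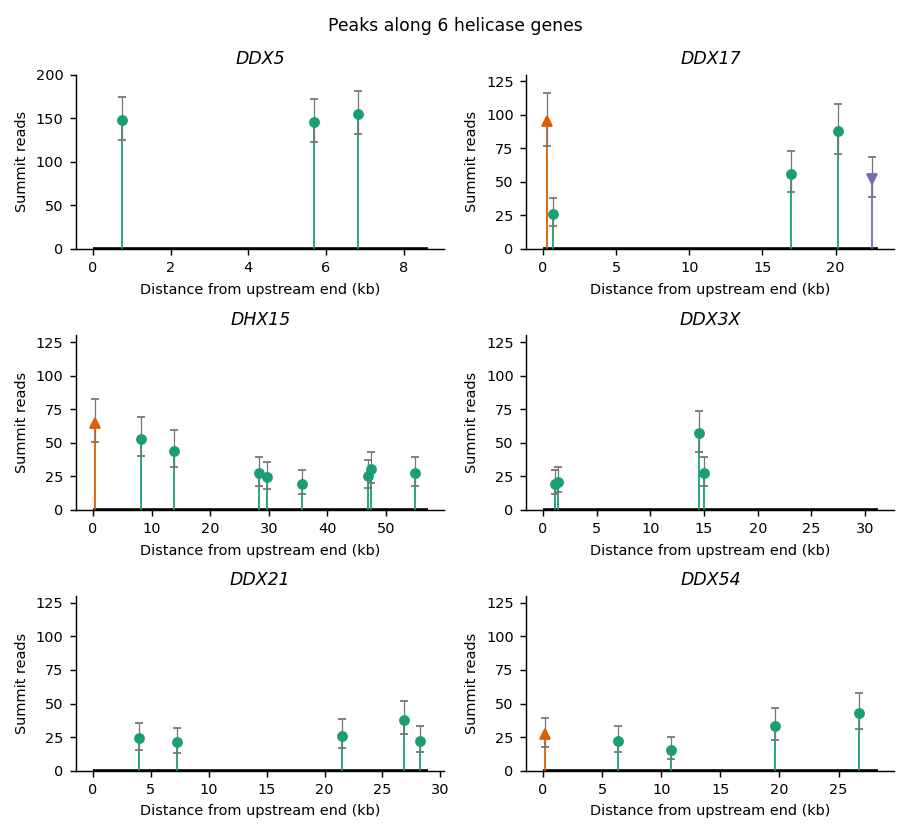
Summit reads (y axis) of each peak against its distance from the upstream end of the gene in kb (x axis) for DDX5, DDX17, DHX15, DDX3X, DDX21 and DDX54. The black bar is the gene span and error bars are exact Poisson 95% intervals, and colours and symbols follow the plot of peaks by gene. In DHX15 the 3 peaks nearest the upstream end hold 65, 53 and 44 reads and the other 6 hold 19 to 30.

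Among the other splicing members, DDX23 (PRP28, which acts when the U1 particle is released) held 3 peaks of 14, 20 and 22 reads. The one with 20 reads had a fold of 10.4, with 39.2% of the 51 reads in its 10 kb under it. DDX42, a protein bound to the U2 particle, held 3 peaks, and the one 587 bases in had 22 reads at a fold of 10.8. DDX41, a helicase of late spliceosomes, had 1 peak of 35 reads (24.4 to 48.7), 154 bases from its downstream end, and DDX39A, an mRNA export factor, had 1 of 26 reads (17.0 to 38.1). DDX46 (PRP5) held 3 peaks of 10 to 13 reads, DHX38 (PRP16) 1 of 13 reads, and DHX35 1 of 8 reads.

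DHX8 (PRP22, which releases spliced mRNA) ranked 3 in the family by its deepest summit, but on reads of the other strand. Its peaks with 76 reads (59.9 to 95.1) and 59 reads (44.9 to 76.1) lay on the minus strand, while DHX8 is on the plus strand. Both centres also lie in the span of ETV4, a transcription factor gene whose strand was not in the table used. On its own strand DHX8 had 2 peaks, of 11 and 16 reads, the first 178 bases from its upstream end. By own-strand summits it ranked 19 of 34, a rank that leaves out the members of unknown strand.

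DHX16 and DDX39B (UAP56, which loads export factors on mRNA) held no peak, and both lie in the major histocompatibility region of chromosome 6. Between 29 and 33 Mb on that chromosome the list held 1 peak, in 1 of 144 coding genes (0.694%). In the stretch from 25 to 28 Mb, 38 of 79 coding genes held a peak (48.1%), and from 34 to 38 Mb 34 of 57 did (59.6%). The list also held 12 peaks, of 6 to 26 reads, on 5 alternate contigs of chromosome 6. The lack of a peak in DHX16 and DDX39B is shared by nearly all genes of their region, and the part of the contigs in it was not tested. Without them the share of members with a peak was 74.5%, 38 of 51.

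Helicases of translation, decay and storage of mRNA held a peak in 6 of 6 genes (exact interval 54.1 to 100%), against 41.7% of all coding genes and 71.7% of the family, with 16 peaks of 11 to 57 reads. DDX3X, which helps ribosomes start on structured mRNA, had 4 peaks on chromosome X between 41334262 and 41348451, on the plus strand as the gene is. Their summits held 19, 21, 57 (43.2 to 73.9) and 27 reads (17.8 to 39.3), and the last 2, about midway along the gene, were neighbours. DDX3X has a close copy on chromosome Y, and the sources used here do not say how reads shared between copies were assigned. DDX6, a component of P bodies that represses translation, held 3 peaks of 21, 25 and 25 reads, the highest fold being 8.78. DHX34, which acts in nonsense-mediated decay, held 5 peaks spread along 33390 bases with nearly equal summits, from 18 to 20 reads and folds of 4.52 to 5.59. DHX36, which unwinds G-quadruplexes, and DHX29, which helps the small ribosomal subunit scan, each had 1 peak near the upstream end, with 15 reads at a fold of 9.20 and 11 reads at a fold of 8.22. DDX1, a part of the tRNA ligase complex that was placed in this group by hand, had 2 peaks of 13 reads each.

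Helicases of ribosome biogenesis held a peak in 10 of 16 genes (exact interval 35.4 to 84.8%), with 26 peaks of 7 to 66 reads. That interval covers both the 41.7% of all coding genes and the 71.7% of the family. DDX54, a nucleolar protein, held 5 peaks, all on its own strand, with 27, 22, 15, 33 and 43 reads from upstream to downstream. The first, 182 bases in, had the highest fold, 10.9, at 34.2% of its 10 kb, and the last, with 43 reads (31.1 to 57.9), also lay in the span of CFAP73. DDX21, a nucleolar helicase that couples rRNA transcription and processing, held 5 peaks of 21 to 38 reads over 28899 bases, the deepest 26823 bases in. DDX50, its paralog and neighbour on chromosome 10, held 2 peaks of 11 and 7 reads. The intervals of the deepest summits, 26.9 to 52.2 in DDX21 and 5.49 to 19.7 in DDX50, do not overlap. DDX56, which acts in large-subunit assembly, held over its 8105 bases 3 peaks of 30 to 36 reads, and DDX51 held 2 of 19 and 24 reads. DDX49 had 1 of 24 reads, DDX55 1 of 16 and DDX18 1 of 14, and DHX33 had 2 of 9 and 15.

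DHX37, which releases the U3 snoRNA during small-subunit assembly, held the peak with the highest fold of the family, on the strand opposite to the gene. This plus-strand peak, at chr12:124965578-124965777, was 200 bases wide, the narrowest width among coding-gene peaks, with 66 reads (51.0 to 84.0) out of 67 in its 10 kb and a fold of 28.6. On the minus strand, which is its own, DHX37 had 3 peaks of 18, 14 and 13 reads, the first 184 bases from the upstream end at a fold of 10.8. By own-strand summits DHX37 ranked 18 of the 34 members of known strand with such a peak.

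In the smaller role groups summits ran from 8 to 39 reads. Both helicases of mitochondrial RNA held peaks, where the share was 41.7% over all coding genes and 71.7% over the family. DHX30, which acts in mitochondrial ribosome assembly, had 4 of 25, 33, 39 and 30 reads along 47056 bases, and DDX28 had 3 of 10 to 13 reads within only 2317 bases. DHX9, which resolves RNA and DNA structures in the nucleus, had 3, with 15, 23 and 35 reads, and the last, 624 bases from the downstream end, had a fold of 10.8. DDX11, a DNA helicase of sister chromatid cohesion, had 3, with 15, 16 and 33 reads, which may be shared with the closely related pseudogene DDX12P. The innate immune members DDX60, DDX60L and DHX58 (LGP2, of the RIG-I sensor group) held 3, 1 and 1 peaks of 8 to 16 reads. In the export and SMN group DDX19A, which removes proteins from mRNA at the nuclear pore, had peaks of 12 and 14 reads, DDX20 (Gemin3) of 10 and 8, and DDX19B, nearly identical to DDX19A, none. Reads common to DDX19A and DDX19B could be assigned to either or to none. DHX32 had 1 peak of 12 reads and DDX59 1 of 10, the latter also in the span of the antisense gene DDX59-AS1 on the other strand.

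None of the 4 germ line helicases DDX4 (VASA), DDX25, DDX43 and DDX53 held a peak, a count whose exact interval reaches 60.2%. The share with a peak was 41.7% over all coding genes and 71.7% over the family. The other members without one were DDX10, DDX24, DDX27, DDX31, DDX47 and DDX52 of ribosome biogenesis, DDX19B, DHX40 and DHX57, besides DHX16 and DDX39B. The 15 genes without a peak had a median length of 32916 bases, against 30022 for the 38 with one. Among all coding genes those without a peak were the shorter ones, at 18474 bases against 33287. The 13 members with a single peak had summits of 8 to 35 reads and folds of 3.89 to 9.20.

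Strand was known for 48 of the 53 members, from the RefSeq promoter table, which does not list DDX18, DDX49, DDX52, DHX33 and DHX58. In the listed genes 92 of 95 peaks lay on the strand of the gene (96.8%, exact interval 91.0 to 99.3%), against 94.3% of 16763 pairs of peak and gene over all coding genes. The 3 exceptions were the plus-strand peak of DHX37 and both ETV4 peaks of DHX8. Where the centre lay in no other gene of the table, coding or not, the shares were 98.9% in helicases and 98.4% in all coding genes.

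Along the gene, helicase peaks gathered at both ends as coding-gene peaks did generally. Of the 92 peaks on the gene's strand, 18 had their centre within 500 bases of the upstream end (19.6%, exact interval 12 to 29.1%), against 20.3% over all coding genes. Within 500 bases of the downstream end lay 11 (12%, 6.12 to 20.4%), against 9.52%. Both intervals cover the value for all coding genes. Measured by length, the last 10% of the gene held 31.5% of helicase peaks and 24.9% of coding-gene peaks, and the first 10% held 26.1% and 28%.

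**Figure D4:**
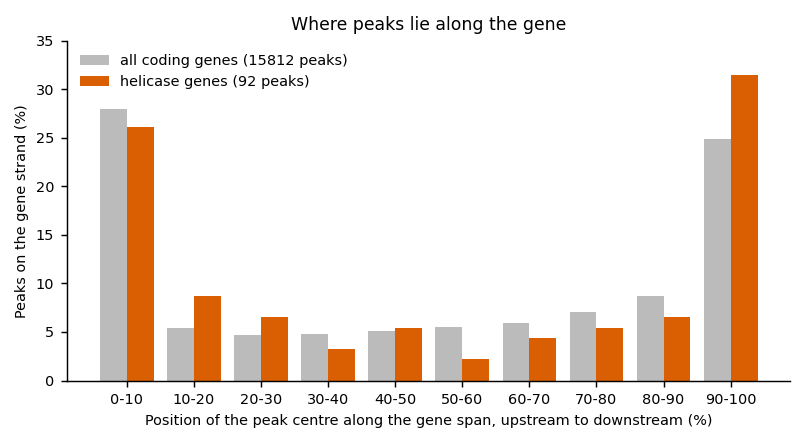
Percentage of peaks on the gene's strand (y axis) in each 10% of the gene span from the upstream to the downstream end (x axis), for 92 helicase peaks and 15812 pairs of peak and gene over all coding genes. The first and last 10% hold 26.1 and 31.5% of helicase peaks and 28 and 24.9% of coding-gene peaks.

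Upstream-end peaks of helicase genes had higher folds from fewer reads than the rest. Their median fold was 7.31 with a median of 14.5 reads, against 5.21 with 22 reads in the interior and 5.59 with 19 reads at the downstream end. They took a median of 33.4% of the reads of their 10 kb, against 13.7% and 14.2%. The 10 kb around a gene start reaches beyond the gene, and the part of this in the folds was not tested. That order of folds held over all coding genes, with medians of 7.83, 5.52 and 6.01. Counting only peaks on the gene's strand, 13 members had more than 1 peak and 1 of them at the upstream end, and that peak had the highest fold in 9 (69.2%, exact interval 38.6 to 90.9%), against 72.0% over all coding genes. Of the 9 peaks with a fold of 10 or more in the family, on either strand, 4 lay at an upstream end, those of DHX15, DDX17, DDX54 and DHX37. On the gene's strand such peaks numbered 4 at the upstream end, 4 in the interior and 0 at the downstream end. Over all coding genes they numbered 937, 631 and 155, so a gathering at the upstream end was not particular to the family.

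**Figure D5:**
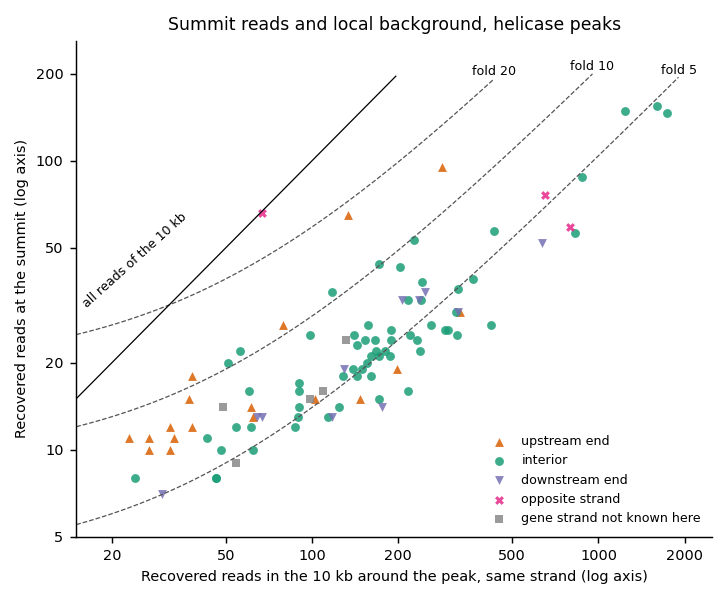
Reads at the summit (y axis, log scale) against reads in the 10 kb around the peak on the same strand (x axis, log scale) for the 100 helicase peaks, with dashed lines of equal fold at 5, 10 and 20 and a solid line where all reads of the 10 kb lie under the summit. The DHX37 peak on the opposite strand lies at that line, with 66 of 67 reads, and the 3 DDX5 peaks lie at the right, with 1235 to 1736 reads around them.

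The promoter windows of DHX15, DDX17 and DDX54 are shown because their upstream peaks had the highest folds among those that reach such a window. Each window runs from 250 bases before to 50 bases after a gene start of RefSeq (GRCh38.p14), is printed 5′ to 3′ on the minus strand, which all 3 genes use, and has the bases inside the peak in capitals.
DHX15 at chr4:24584505-24584804: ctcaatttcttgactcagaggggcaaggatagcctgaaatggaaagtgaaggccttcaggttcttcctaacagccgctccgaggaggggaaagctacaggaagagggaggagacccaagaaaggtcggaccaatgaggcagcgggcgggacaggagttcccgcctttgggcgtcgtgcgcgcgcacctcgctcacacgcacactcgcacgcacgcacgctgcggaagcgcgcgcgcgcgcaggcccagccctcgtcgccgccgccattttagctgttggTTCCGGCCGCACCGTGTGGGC
DDX17 at chr22:38506262-38506561: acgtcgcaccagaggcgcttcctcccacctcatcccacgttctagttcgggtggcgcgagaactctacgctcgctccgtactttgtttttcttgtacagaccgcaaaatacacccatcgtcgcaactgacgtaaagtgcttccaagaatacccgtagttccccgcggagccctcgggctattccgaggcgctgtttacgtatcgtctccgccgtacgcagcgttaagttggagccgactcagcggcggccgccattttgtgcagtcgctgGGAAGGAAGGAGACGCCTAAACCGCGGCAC
DDX54 at chr12:113185429-113185728: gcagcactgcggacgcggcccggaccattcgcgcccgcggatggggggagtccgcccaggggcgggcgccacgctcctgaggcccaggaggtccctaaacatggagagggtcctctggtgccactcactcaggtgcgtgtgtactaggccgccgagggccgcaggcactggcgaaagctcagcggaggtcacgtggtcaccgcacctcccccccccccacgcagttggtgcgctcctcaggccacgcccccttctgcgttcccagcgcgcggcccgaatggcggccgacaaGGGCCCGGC
Peaks began 29 bases after the gene start in DHX15, 20 bases after it in DDX17 and 41 bases after it in DDX54, so the capitals, of 21, 30 and 9 bases, are at the right end and the bases before the start lie outside the peaks. The windows of DDX50 and DDX19A showed the same layout, with peaks 32 and 33 bases after the start. At the other 3 windows reached by a peak, the peak ran across the start given in the table or lay before it, covering 182 bases of the window in DDX5, 171 in DDX11 and 165 in DDX59.

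Sequence content was compared over all promoter windows of the table. The 63 windows of 48 members had a median GC content of 60.7% and 25 CG pairs, against 58.7% and 14 for all 35116 windows. Those 35116 windows belong to 27305 genes, more than the 19970 coding genes used elsewhere, so they include noncoding genes. The part of noncoding genes in the differences was not tested. The half-sites AGTTCA and AGGTCA, which DNA-bound PXR is known to recognise, were searched as these 6 letters on both strands. AGTTCA was in 4 helicase windows (6.35%), against 10.4% of all windows, and AGGTCA in 7 (11.1%), against 13.8%. Of the 3 windows shown, that of DDX54 holds AGGTCA on the strand printed. A match is a stretch of letters and no measure of binding.

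Other RNA helicases without a DDX or DHX symbol held a peak in 17 of 23 genes (73.9%, exact interval 51.6 to 89.8%), against 41.7% of all coding genes. The family here is set by symbol, so this list also holds DEAD box proteins under other names, such as those of EIF4A1 and EIF4A2. The deepest were EIF4A1, the helicase of the cap-binding complex, with 148 reads and a fold of 7.85 at a place shared with another gene, and HELZ2 with 78 reads at 2.37. EIF4A2 and UPF1 (the helicase of nonsense-mediated decay) followed with 60 reads each, at folds of 4.38 and 10.7, and ASCC3 (a helicase that splits stalled ribosomes) with 43 reads at 20. The 48 peaks of this list had a median fold of 5.23 and a median of 20 reads, near the 5.45 and 21 of the peaks in DDX and DHX genes.

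Known partners of helicases held a peak in 33 of 40 genes (82.5%, exact interval 67.2 to 92.7%), against 41.7% of all coding genes. EIF4G1, the scaffold that activates eIF4A, was deepest, with 155 reads at a fold of 13.1. CHTOP and ALYREF, export proteins that work with DDX39B, had summits of 61 and 56 reads with folds of 12.1 and 11, each at a place shared with another gene. EIF4B and EIF4H, which stimulate eIF4A, had 59 reads at 10.8 and 54 reads at 7.81. The median fold over 77 partner peaks was 5.92. The intervals of all 3 shares, for the family, the other helicases and the partners, overlap. The lists were chosen with earlier results of these data known, and the intervals do not cover that choice.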

How the data were processed

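The 3 eCLIP libraries are represented by 1 peak list. Per the submitters' processing notes, cutadapt, BWA, MACS2 and hg38 were used, with versions and settings not given in the sources used here, nor whether replicates were pooled. For each peak the deposited list gives a fold (ratio), −log10 p and −log10 q, the summit's distance from the peak start, and a score, which equalled the integer part of 10 times the −log10 q in 21031 of 21031 peaks. Reads and background were recovered as the whole number and mean for which fold and Poisson p both hold, within 0.0001 plus a 0.00001 part of it, in 21028 peaks, among them all 100 helicase peaks. In 29 peaks of the list another whole number came within 0.001. All 100 helicase backgrounds, scaled from 200 bases to 10 kb, were whole within 0.05, as a read count is, and none was below its summit count. Recovery was tested on simulated data.

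Genes came from the RefSeq table of GRCh38.p14 (59792 genes, 19970 coding ones used), gene strand and windows from its promoter table. Members and gene lists were chosen with earlier results of these data known, and the 500 base end windows, the histocompatibility region and the AGTTCA and AGGTCA search after seeing them. Summit reads, singly or as a range, were given for the 12 members with the deepest summits and the 8 with most peaks. The 5 peaks of highest fold were also given, while folds and intervals were printed for part of the peaks only. The remaining members were described more briefly, with the 5 deepest of each other list. Roles were assigned by hand. The export factors DDX39A and DDX39B were counted with splicing, and DDX1 with translation, decay and storage. Alternatives covered peak assignment, thresholds, depth and strand. Analysis used Python 3.11.15, pandas 2.3.3 and scipy 1.17.1.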

Additional observations from a re-analysis of the deposited data

Results flagged for a closer look

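The list held 12 peaks on alternate contigs of chromosome 6, which are in the totals of the list but in no count of genes with a peak. They are given beside DHX16 and DDX39B, which had no peak on the chromosome itself, and the table of genes used here does not place genes on those contigs.

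DDX12P, a transcribed pseudogene closely related to DDX11, held 2 peaks, both on the minus strand, the first with 33 reads (fold 8.02) and the second with 21 (fold 12.1). DDX11 itself had 3 on the plus strand, with 15, 16 and 33 reads. The copies are alike, so the origin of reads in either is uncertain. Of 35 pseudogenes with DDX or DHX symbols 2 held a peak (5.71%), against 855 of all 17088 pseudogenes (5.00%), the other being DDX6P2 with 7 reads.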

How the results depend on the processing

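Counting peaks by summit or by any overlap of 1 base again gave 38 genes and 100 peaks. With only peaks in 1 gene, with −log10 q of 5 or more, with 10 or more reads or with only peaks on the gene's strand, the share of members with a peak was 69.8, 69.8, 69.8 and 70.8%, against 35.9, 37.1, 37.3 and 41.6% of all coding genes. The shares for peaks on the gene's strand are of genes with known strand only, 48 members and 15812 coding genes. Keeping only peaks with −log10 q at or above the list median changed most values, by its construction as a stricter threshold. Then 20 members held a peak (37.7%, against 26.0% of all coding genes, a gap that was not tested). They held 40 peaks with a median fold of 6.66 and a median of 34 reads. Of these members 1 held 5 or more, and 17 partner genes held a peak. Within 250 bases of the upstream end lay 10.9% of helicase peaks (10.8% of coding-gene peaks), and within 1000 bases 23.9% (25.8%). The 12 deepest genes had summits of 35 or more reads, but 5 helicase peaks held under 10, where the counting intervals are widest relative to the count. No paired analysis was possible because the list has no values of single libraries.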
